A study of Mus musculus with 15 samples.

Results

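The genes described here are the chaperones and stress response genes of 3 mouse neutrophil populations: the genes of the unfolded protein response of the endoplasmic reticulum (ER), the cytosolic heat shock proteins and the mitochondrial chaperones. They were chosen by name, and every probe whose current or former gene symbol was on the list of 45 genes was taken. Of these 45 genes, 36 had an annotated probe among the probes kept for analysis, with 48 probes in all, out of 11074 genes and 16317 probes. The ER branch had 24 measured genes of 30, the cytosolic heat shock branch 9 of 12 and the mitochondrial group 3 of 3. Canx, Dnajb11, Atf6, Ern1, Sdf2l1, Manf, Hspa1b, Hsp90ab1 and Hsf1 were not analysed here.

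RNA came from Ly6G+ neutrophils of BALB/c mice and was hybridized to Illumina Mouse Ref-8 v2 bead arrays. Naïve neutrophils (NN, 7 arrays) were taken from the bone marrow of mice with no tumor. Granulocytic myeloid-derived suppressor cells (G-MDSC, 4 arrays) came from spleens of mice with flank tumors of AB12, a mouse mesothelioma line, and tumor-associated neutrophils (TAN, 4 arrays) were taken from AB12 flank tumors themselves. By the methods, RNA of several mice was pooled for each array, marrow was flushed and spun on Percoll, spleens and tumors were digested and enriched on CD11b beads, and TAN came from smaller tumors at an earlier time than G-MDSC, whereas the labels give beads and a Ly6G sort for all groups. Population, organ and preparation of the cells cannot be told apart in this design. In such bulk samples fewer cells of a type and less RNA per cell cannot be told apart either.

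Proteins that enter the ER are folded there by the chaperone BiP (Hspa5) and its co-chaperones, and by disulfide isomerases. When unfolded proteins accumulate, the sensors IRE1, PERK and ATF6 start the unfolded protein response, in which XBP1 and ATF6 raise chaperone and degradation genes, and PERK slows translation and favors ATF4 and its targets. PERK shares this last arm, the integrated stress response, with kinases that sense amino acid shortage, heme and viral RNA. Unfolded proteins in the cytosol are met by HSP70 and HSP90 and their co-chaperones, which heat shock factor 1 induces, and the HSP60 and HSP10 chaperonin folds proteins in mitochondria. Neutrophils carry large stores of granule proteins that were folded in the ER of their precursors in marrow.

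All values below are log2 signals after background correction and quantile normalization, or differences between group means on that scale, so that a difference of 1 is a doubling. The words rose and fell are kept for genes whose Benjamini-Hochberg adjusted p, from limma and over all kept probes, lay under 0.05. Errors are standard errors (SE) of the fit over the arrays given above, and the p-values measure the spread between these pooled samples. A probe counted as above background over a limit that lay between 6.45 and 6.55 on the arrays. By this limit NN had 13086 to 13755 kept probes above background, G-MDSC had 12865 to 12901 and TAN had 12088 to 13006. The arrays fell into a pair of raw background levels, with medians of 105 to 114 in NN 6, NN 7 and all G-MDSC, and of 76.2 to 94.3 in the other NN and all TAN. Among markers of the cells, 8 of 10 neutrophil markers fell in TAN, relative to NN, and none rose. Their list mean was 12.05 to 13.00 in TAN (13.00 in TAN 3), 14.37 to 14.57 in G-MDSC and 14.73 to 14.92 in NN. TAN had a rise of 6 of 9 macrophage markers and a fall of none, with a list mean of 10.55 to 12.60 in TAN (12.60 in TAN 3) and 9.07 to 9.92 in NN, and all 9 were above background on every array. Of 5 fibroblast and mesothelial markers 4 rose in TAN. All 6 neutrophil precursor markers and all 5 erythroid markers fell in both G-MDSC and TAN, so that NN held more of these transcripts. Of 6 markers of plasma cells, which use the ER heavily, 2 rose in G-MDSC, with a list mean of 7.46 in G-MDSC 1 and 6.64 to 6.76 in the others against 6.69 to 7.00 in NN. In G-MDSC 1 the 4 B cell markers had a mean of 10.60 and the 5 T and NK cell markers one of 9.46, against 7.39 to 7.73 and 7.67 to 7.78 in the other G-MDSC. The part of other cells in the results below was not tested.

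The promoters of the genes were searched for the elements by which these responses are known to be switched on, and the stretches that carry the matches are shown here for genes whose signals are described below. RefSeq promoter sequences (GRCm38.p6), each with 250 bases before the start site and 50 after it, were held for 37 of the 45 genes, with 43 promoters in all. A gene was counted if any of its promoters held the match, whereas the shares of all promoters count single promoters. The ER stress response element was searched only as CCAAT followed after 9 bases by CCACG on either strand, so that forms with another spacing were not counted. It was present in this form in promoters of 8 of the 37 genes (21.6%), all of the ER branch, and in 39 of all 32851 promoters (0.119%). These 8 genes were Hspa5, Hsp90b1, Calr, Canx, Pdia6, Dnajc3, Syvn1 and Creld2. The stretches chr2:34771985-34772083 (plus strand), chr10:86705493-86705694 (minus strand), chr8:84847035-84847133 (minus strand), chr12:17266451-17266549 (plus strand) and chr14:118937787-118937885 (plus strand) belong to the lines in this order and are given 5′ to 3′ along the gene, with the CCAAT and CCACG parts, or their reverse complements ATTGG and CGTGG, in capitals. Hsp90b1 holds the element on each strand.
Hspa5: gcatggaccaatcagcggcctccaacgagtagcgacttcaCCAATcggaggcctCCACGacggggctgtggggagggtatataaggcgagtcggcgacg
Hsp90b1: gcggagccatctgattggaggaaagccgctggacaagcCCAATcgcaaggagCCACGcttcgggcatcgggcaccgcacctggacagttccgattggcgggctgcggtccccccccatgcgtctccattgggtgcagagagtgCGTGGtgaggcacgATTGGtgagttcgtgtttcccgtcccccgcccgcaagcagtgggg
Calr: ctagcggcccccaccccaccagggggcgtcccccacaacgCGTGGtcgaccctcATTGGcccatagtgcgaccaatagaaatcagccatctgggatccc
Pdia6: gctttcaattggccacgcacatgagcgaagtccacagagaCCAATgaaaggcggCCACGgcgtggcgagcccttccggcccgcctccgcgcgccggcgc
Dnajc3: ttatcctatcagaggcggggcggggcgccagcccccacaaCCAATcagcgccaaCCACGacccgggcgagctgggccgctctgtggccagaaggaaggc

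The core of the heat shock element, GAANNTTC, reads the same on both strands and was found in 5 of 8 cytosolic genes with a promoter (Hspa1a, Hspa1b, Hsph1, Dnaja1 and Bag3), in both mitochondrial genes with one (Hspd1 and Hspe1), in 1 of 27 ER genes (Asns) and in 7.86% of all promoters. In Hsph1 and Bag3 it lay after the start site. Hspd1 and Hspe1 are transcribed away from each other, and the match at chr1:55088064-55088071 is one and the same for both. TGATGNAA, the core of the composite element bound by ATF4 with a C/EBP partner, was found on either strand in Herpud1, Trib3, Chac1 and Asns, 4 of the 37 genes (10.8%), and in 3.97% of all promoters, and in Asns it overlaps the GAANNTTC match. TGACGTGG, a site of ATF6 and XBP1, was in none of the 37 and in 0.676% of all promoters. The stretches chr17:34972213-34972300 (minus strand), chr4:40722304-40722391 (plus strand) and chr1:55088024-55088111 (plus strand) show GAANNTTC in capitals, and chr2:119351009-119351096 and chr8:94386277-94386364 (plus strand) show in capitals TGATGNAA as read on the other strand. A match is a run of letters and not a measured binding site.
Hspa1a: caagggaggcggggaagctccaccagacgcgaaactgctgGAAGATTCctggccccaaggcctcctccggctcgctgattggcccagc
Dnaja1: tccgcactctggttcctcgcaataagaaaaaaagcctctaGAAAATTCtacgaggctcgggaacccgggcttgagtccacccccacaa
Hspe1: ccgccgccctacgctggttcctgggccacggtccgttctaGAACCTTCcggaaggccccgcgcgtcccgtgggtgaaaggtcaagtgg
Chac1: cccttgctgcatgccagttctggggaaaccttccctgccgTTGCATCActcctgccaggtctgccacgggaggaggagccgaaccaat
Herpud1: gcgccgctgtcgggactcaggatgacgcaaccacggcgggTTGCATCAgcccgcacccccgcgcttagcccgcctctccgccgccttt

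In G-MDSC 14 of 24 ER genes rose and 8 of 9 cytosolic genes did not pass the test, while in TAN 12 ER genes, 7 cytosolic genes and all 3 mitochondrial chaperones rose. From NN to G-MDSC 15 of the 36 genes rose, against 18.3% of all genes, and 1 fell, against 19.7%. The 1 cytosolic gene that rose was Hspa1a. The median difference was 0.64 over the 24 ER genes, 0.22 over the 9 cytosolic genes and 0.15 over the 3 mitochondrial ones, beside -0.01 over all genes. The cytosolic median was 0.05 without G-MDSC 1, 0.35 without G-MDSC 3 and 0.03 with a block for background level. From NN to TAN 22 of the 36 genes rose, against 36.9% of all genes, and 5 fell, against 26.2%. All 5 that fell were of the ER branch, and the medians of the ER, cytosolic and mitochondrial genes were 0.42, 1.02 and 2.54, beside 0.12 over all genes. With a block for background level, 8 of the 15 genes stayed risen in G-MDSC (against 11.9% of all genes): Hspa5, Dnajb9, Xbp1, Ddit3, Ppp1r15a, Ppp1r15b, Sesn2 and Hspa1a.

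**Figure D1:**
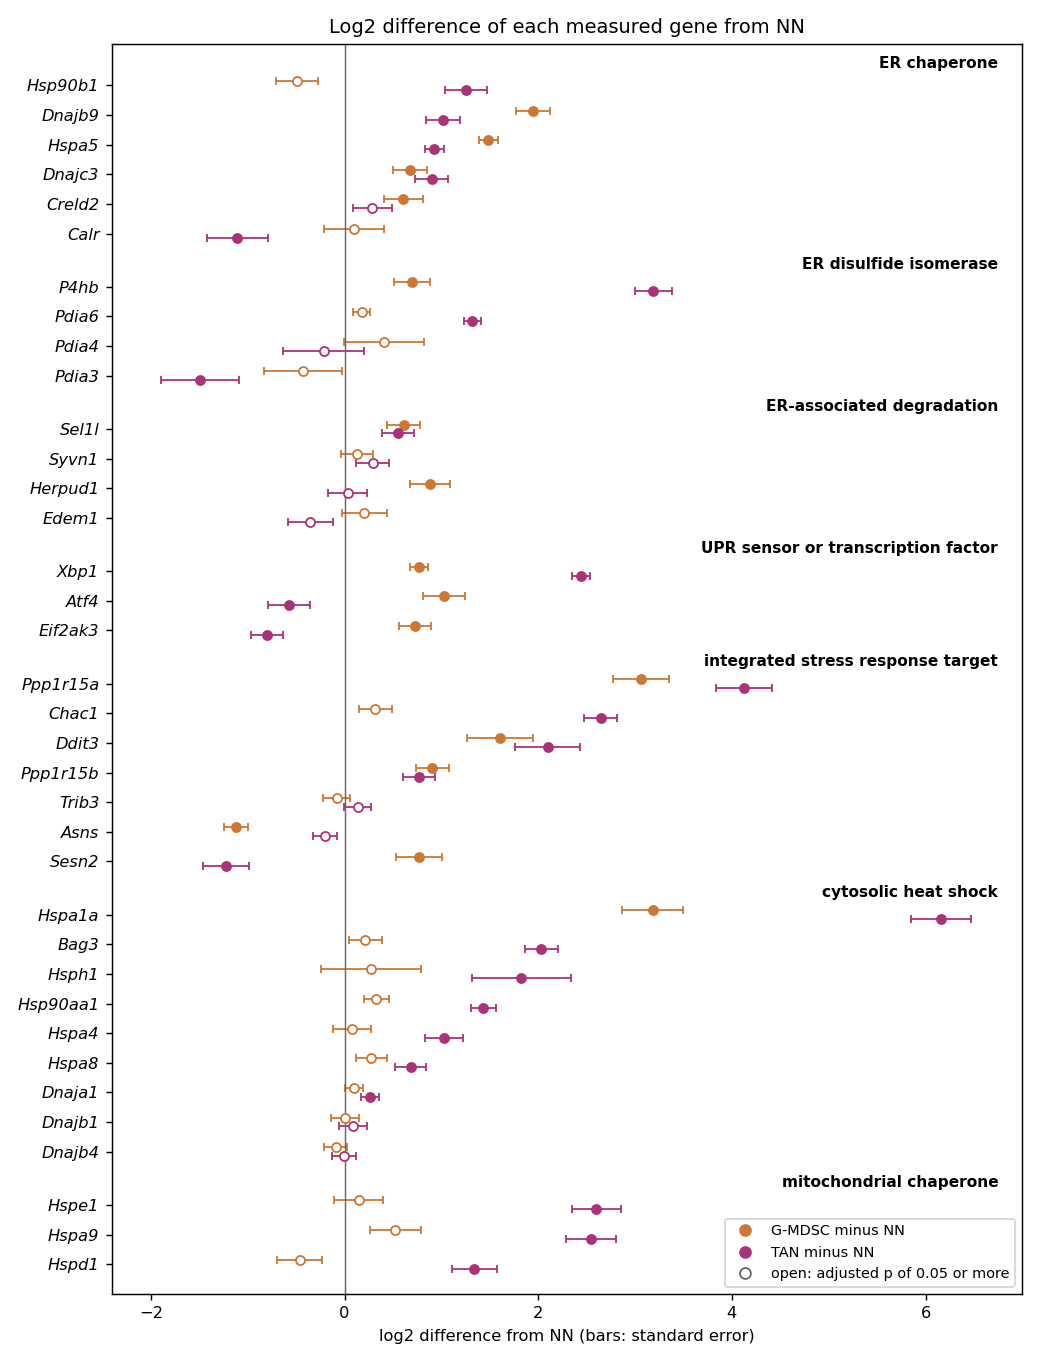
Log2 difference from NN (x axis, bars are the standard error of the limma fit) of the 36 measured genes (y axis), grouped by role, for G-MDSC (4 arrays, orange) and TAN (4 arrays, purple) against 7 NN. Filled points have an adjusted p under 0.05. All mitochondrial and 7 of 9 cytosolic TAN points are filled and lie right of 0, while TAN points of the ER branch lie on both sides. The points of Hspa1a are fitted values against NN that were below background.

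Of 6 ER chaperone genes, 4 rose in G-MDSC and 4 in TAN, and Calr was the one that fell, in TAN. Hspa5, which encodes BiP, the HSP70 of the ER lumen, had signals of 6.65 to 6.99 (median 6.88) in NN, of 8.60, 8.16, 8.46 and 8.17 in G-MDSC 1 to 4, and of 7.73, 7.86, 7.80 and 7.77 in TAN 1 to 4. The groups did not overlap, with NN lowest and G-MDSC highest. Hspa5 rose by 1.49 (SE 0.10, adjusted p = 7.52e-09) in G-MDSC and by 0.93 (SE 0.10, adjusted p = 6.49e-07) in TAN. Dnajb9, the ER co-chaperone ERdj4, whose gene is a known XBP1 target, followed the same order. It had 10.36 to 10.79 (median 10.44) in NN, 13.07, 12.08, 12.58 and 12.12 in G-MDSC and 11.28, 11.25, 11.81 and 11.80 in TAN, again without overlap. Its difference from NN was 1.95 (SE 0.18, adjusted p = 2.5e-07) in G-MDSC and 1.02 (SE 0.18, adjusted p = 0.000103) in TAN. From G-MDSC to TAN, Hspa5 fell by 0.56 (adjusted p = 0.000551) and Dnajb9 by 0.93 (adjusted p = 0.000907), a call that Hspa5 lost with a block for background level (-0.39, adjusted p = 0.083).

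Hsp90b1, the HSP90 of the ER known as GRP94, had a different order. Its signals were 11.92 to 12.41 (median 12.20) in NN, 12.69, 11.28, 11.18 and 11.51 in G-MDSC and 13.26, 13.39, 13.39 and 13.56 in TAN. All TAN lay above all NN and G-MDSC, and G-MDSC 1 lay above NN while the other G-MDSC lay below. Hsp90b1 rose by 1.25 (SE 0.22, adjusted p = 0.000114) in TAN. Its difference in G-MDSC was -0.49 (adjusted p = 0.0937), and without G-MDSC 1 it was -0.83 (adjusted p = 6.8e-05). Dnajc3, the co-chaperone p58IPK, rose by 0.68 (adjusted p = 0.00536) in G-MDSC and by 0.90 (adjusted p = 0.000272) in TAN, where TAN 3 at 7.18 lay within the NN range. Creld2, an ER protein induced by ER stress, rose by 0.61 (adjusted p = 0.0275) in G-MDSC, with 9.40 to 9.72 against 8.68 to 9.12 in NN, and lost the call when NN 5, G-MDSC 1 or G-MDSC 3 was left out (adjusted p of 0.0529 to 0.0732).

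Calr encodes calreticulin, a lectin chaperone of the ER that binds calcium. Its signals were 7.28 to 8.72 (median 7.75) in NN, 7.06, 8.5, 8.42 and 7.92 in G-MDSC and 6.56, 6.51, 7.28 and 6.75 in TAN. NN 6 and NN 7, of the high background level, were the highest NN at 8.72 and 8.63, and TAN 2 was below background. Calr fell by 1.11 (SE 0.31, adjusted p = 0.00564) in TAN, with a difference of -0.79 (adjusted p = 0.00318) within the arrays of low background.

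The 4 disulfide isomerase genes, whose products form and shuffle disulfide bonds in the ER, did not move together. P4hb, the classical protein disulfide isomerase and also a subunit of collagen prolyl hydroxylase, had 10.90 to 11.11 (median 11.06) in NN, 12.58, 11.42, 11.41 and 11.54 in G-MDSC and 14.01, 14.07, 14.17 and 14.66 in TAN. The 3 groups did not overlap, and G-MDSC 1 was the highest of its group. P4hb rose by 3.19 (SE 0.19, adjusted p = 6.71e-10) in TAN and by 0.70 (SE 0.19, adjusted p = 0.00804) in G-MDSC. Pdia6, which also binds BiP, had 6.83 to 7.19 (median 7.05) in NN, 7.20, 7.16, 7.17 and 7.35 in G-MDSC and 8.24, 8.43, 8.25 and 8.53 in TAN. TAN lay above all others, with a rise of 1.32 (SE 0.09, adjusted p = 3.34e-09), and G-MDSC differed from NN by 0.18 (adjusted p = 0.134).

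Pdia3, the isomerase ERp57 that works on glycoproteins with calreticulin and calnexin, had 11.58 to 11.89 (median 11.81) in NN, 11.05, 11.53, 11.51 and 11.26 in G-MDSC and 8.98, 9.42, 12.15 and 10.55 in TAN. TAN 3 lay above every NN and the other TAN below every NN. Pdia3 fell by 1.49 (SE 0.40, adjusted p = 0.00435) in TAN, with a difference of -2.12 (adjusted p = 3.22e-07) without TAN 3. Pdia4, the isomerase ERp72, had 6.51, 6.85, 9.46 and 7.62 in TAN and 7.62 to 8.21 in NN, with a difference of -0.22 (adjusted p = 0.674), and it fell by 0.83 (adjusted p = 0.00943) without TAN 3. TAN 3 was thus the highest TAN for both of these isomerases. Among TAN this array also had the highest mean of macrophage markers and the highest mean of neutrophil markers. It had the most kept probes above background, 13006 against 12088 to 12825 in the other TAN. The share of genes with probes over 4-fold apart, relative to NN, was 5.48% in TAN 3 and 17.5 to 22.6% in the other TAN. What part array or RNA quality had in the falls in TAN was not tested.

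ER-associated degradation draws misfolded proteins out of the ER to the proteasome. Herpud1, which organizes the degradation complex, had 12.12 to 12.81 (median 12.50) in NN, 14.10, 12.95, 13.27 and 13.04 in G-MDSC and 12.74, 12.72, 12.00 and 12.50 in TAN. It rose by 0.88 (SE 0.20, adjusted p = 0.00277) in G-MDSC, where all arrays lay above NN, and differed by 0.03 (adjusted p = 0.905) in TAN. Sel1l, the adaptor of the ubiquitin ligase HRD1, rose by 0.61 (adjusted p = 0.00953) in G-MDSC and by 0.55 (adjusted p = 0.00968) in TAN by its brightest probe, and lost the call in TAN without TAN 4 (adjusted p = 0.051) and with arrays scaled to their median (adjusted p = 0.0943). Syvn1, which encodes HRD1, and Edem1, which recognizes misfolded glycoproteins, passed the test in neither comparison, with differences of 0.13 and 0.20 in G-MDSC and 0.29 and -0.35 in TAN. Without TAN 3, Syvn1 rose by 0.50 in TAN (adjusted p = 0.00284).

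All 3 measured genes of sensors and transcription factors rose in G-MDSC, and in TAN Xbp1 rose while Atf4 and Eif2ak3 fell. Xbp1, whose mRNA is spliced by IRE1 to give an active factor, had 11.72 to 12.09 (median 12.00) in NN, 12.79, 12.74, 12.65 and 12.72 in G-MDSC and 14.28, 14.43, 14.57 and 14.33 in TAN. The groups were apart and tight. Xbp1 rose by 0.77 (SE 0.09, adjusted p = 4.8e-06) in G-MDSC and by 2.44 (SE 0.09, adjusted p = 3.04e-12) in TAN; the array does not tell spliced from unspliced mRNA. Atf4, the factor of the integrated stress response, had 7.32 to 7.94 (median 7.58) in NN, 8.15, 8.88, 9.07 and 8.46 in G-MDSC and 6.63, 6.66, 7.89 and 6.98 in TAN. All G-MDSC lay above NN, and all TAN but TAN 3 lay below. Its difference was 1.03 (SE 0.22, adjusted p = 0.00153) in G-MDSC and -0.57 (SE 0.22, adjusted p = 0.033) in TAN, and with a block for background level the adjusted p was 0.0728 and 0.0916. The fall of Atf4 in TAN also lost its call when NN 6, NN 7, TAN 1, TAN 2 or TAN 4 was left out, with adjusted p of 0.054 to 0.128. ATF4 protein is set mainly by translation, which was not measured.

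Eif2ak3 encodes PERK, the ER sensor that phosphorylates the translation factor eIF2α. Its signals were 9.71 to 10.31 (median 9.98) in NN, 10.43, 10.97, 10.93 and 10.52 in G-MDSC and 9.37, 9.43, 8.71 and 9.21 in TAN. The groups did not overlap and stood in the order G-MDSC, NN, TAN. Eif2ak3 rose by 0.73 (SE 0.17, adjusted p = 0.00237) in G-MDSC, with an adjusted p of 0.09 under that block, and fell by 0.80 (SE 0.17, adjusted p = 0.000527) in TAN.

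Among 7 genes grouped as targets of the integrated stress response, 4 rose and 1 fell in each of G-MDSC and TAN. The group includes Ppp1r15b, which encodes a constitutive subunit and is among the risen genes in both. Ppp1r15a, which encodes GADD34, the subunit that brings a phosphatase to eIF2α, had 9.75 to 10.37 (median 10.11) in NN, 14.49, 12.25, 12.98 and 12.91 in G-MDSC and 14.17, 14.11, 14.11 and 14.50 in TAN. Every G-MDSC and TAN lay above every NN, and G-MDSC 1 lay within the TAN range. Ppp1r15a rose by 3.06 (SE 0.29, adjusted p = 4.05e-07) in G-MDSC and by 4.12 (SE 0.29, adjusted p = 4.79e-09) in TAN. Ppp1r15b, which encodes CReP, the constitutive alternative to GADD34 as a subunit of that phosphatase, rose by 0.91 (adjusted p = 0.000458) in G-MDSC and by 0.77 (adjusted p = 0.000893) in TAN. Ddit3, which encodes the factor CHOP, had 9.20 to 9.58 (median 9.39) in NN, 11.64, 10.60, 10.87 and 10.97 in G-MDSC and 10.46, 10.86, 12.93 and 11.80 in TAN. NN lay below all other arrays, and TAN 3 was highest. Ddit3 rose by 1.60 (SE 0.34, adjusted p = 0.0013) in G-MDSC and by 2.10 (SE 0.34, adjusted p = 5.34e-05) in TAN.

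Chac1, Asns and Sesn2 set G-MDSC and TAN apart. Chac1 encodes an enzyme that degrades glutathione. Its signals were 7.36 to 8.0 (median 7.54) in NN, 7.81, 7.85, 8.01 and 8.05 in G-MDSC and 10.50, 10.28, 9.59 and 10.66 in TAN. TAN lay above all other arrays, with a rise of 2.65 (SE 0.17, adjusted p = 2.09e-09), while G-MDSC differed from NN by 0.32 (adjusted p = 0.163). Within the arrays of high background Chac1 rose in G-MDSC by 0.44 (adjusted p = 0.0252), and it was also called there without TAN 3 (adjusted p = 0.0392). Asns, asparagine synthetase, had 11.31 to 11.60 (median 11.53) in NN, 10.46, 10.53, 10.38 and 10.22 in G-MDSC and 11.72, 11.47, 10.92 and 11.17 in TAN. It fell by 1.12 (SE 0.13, adjusted p = 2.9e-06) in G-MDSC, below all other arrays, and differed by -0.20 (adjusted p = 0.181) in TAN.

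Sesn2, sestrin 2, which restrains the growth kinase mTORC1 under stress, went opposite ways. It had 8.85 to 9.64 (median 8.97) in NN, 8.92, 10.18, 10.42 and 10.17 in G-MDSC and 7.81, 7.96, 8.03 and 7.92 in TAN. All TAN lay below NN and the G-MDSC other than G-MDSC 1 above it. Sesn2 rose by 0.77 (SE 0.24, adjusted p = 0.0177) in G-MDSC, a call that it lost when G-MDSC 2, G-MDSC 3 or G-MDSC 4 was left out (adjusted p of 0.0621 to 0.0796), and fell by 1.22 (SE 0.24, adjusted p = 0.000292) in TAN. Trib3, a pseudokinase induced by ATF4 and CHOP, had 6.37 to 7.12 over all arrays and passed the test in neither comparison.

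**Figure D2:**
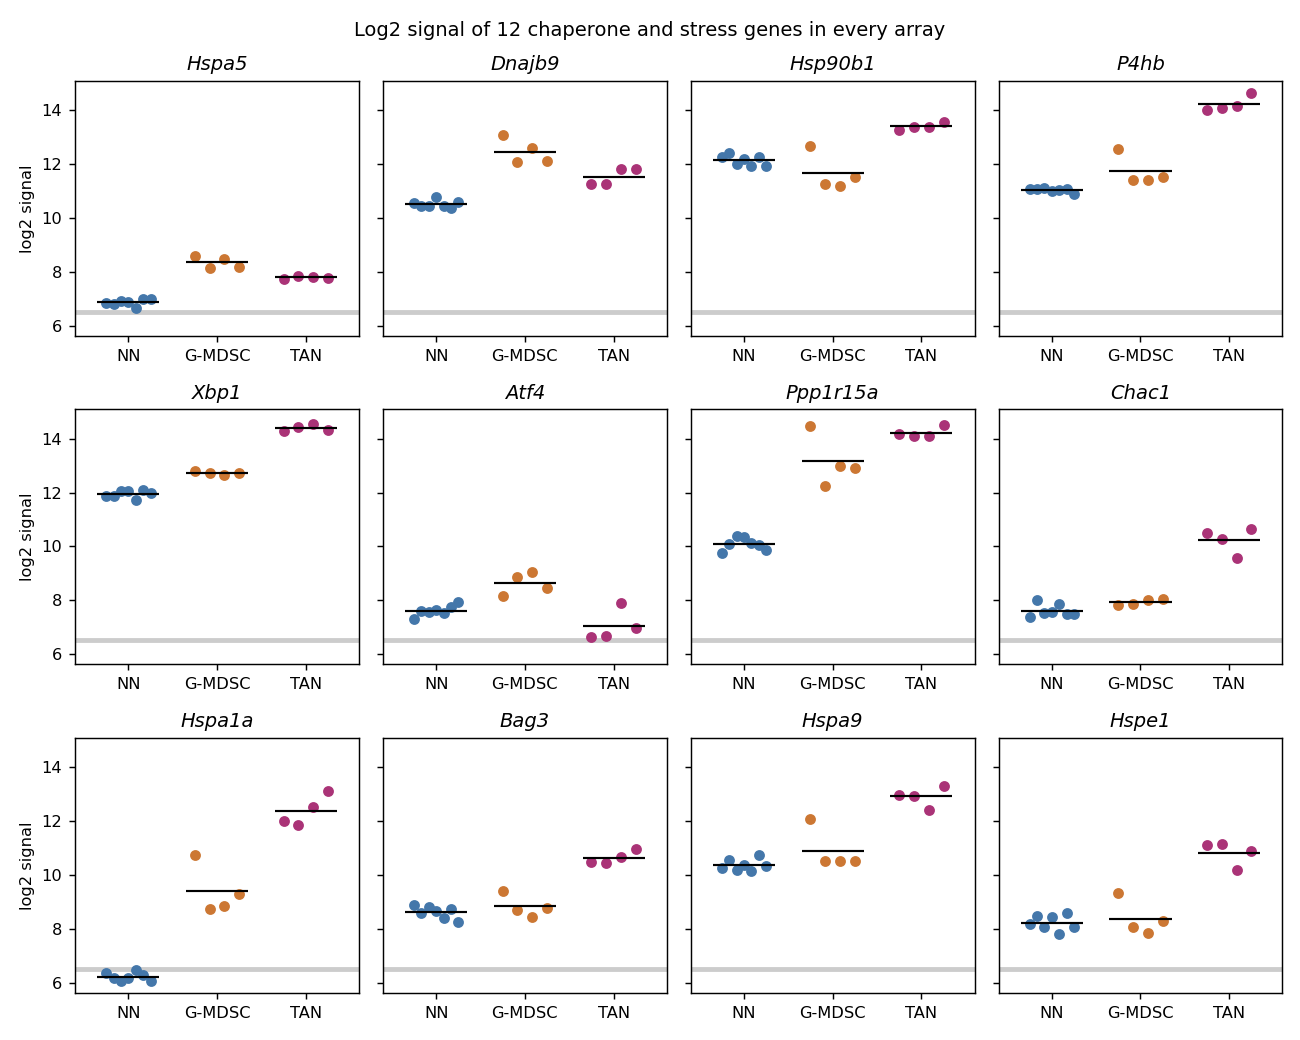
Log2 signal (y axis) of 12 of the genes in every array of NN (7), G-MDSC (4) and TAN (4), each point 1 array and each line a group mean, with the grey band marking the range of the background limit (6.45 to 6.55). Hspa5 and Dnajb9 are highest in G-MDSC, P4hb, Chac1, Bag3, Hspa9 and Hspe1 stand out in TAN, and Hspa1a lies below the background limit in all NN.

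In the cytosolic branch 7 of 9 genes rose in TAN, and in G-MDSC only Hspa1a did. Hspa1a encodes the inducible HSP70. Its signals were 6.05 to 6.47 (median 6.17) in NN, 10.74, 8.73, 8.83 and 9.30 in G-MDSC and 12.02, 11.86, 12.52 and 13.12 in TAN. NN were below background on all 7 arrays, so that only a bound of the fold can be given, which sets the other mean against the lowest signal above background. Hspa1a was at least 7.62-fold higher in G-MDSC (adjusted p = 6.67e-07) and at least 60.0-fold higher in TAN (adjusted p = 1.16e-10) than in NN. From G-MDSC to TAN it rose by 2.98 (SE 0.35, adjusted p = 4.43e-06). Hspa1b is a near-identical neighbor, and signal from its mRNA on this probe was not tested.

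Bag3, a co-chaperone that releases clients of HSP70, had 8.23 to 8.87 (median 8.66) in NN, 9.41, 8.69, 8.43 and 8.78 in G-MDSC and 10.49, 10.45, 10.67 and 10.97 in TAN. TAN lay above all others, with a rise of 2.03 (SE 0.17, adjusted p = 4.21e-08). Hsp90aa1, the inducible cytosolic HSP90, had 6.56 to 6.97 (median 6.73) in NN, 7.45, 6.95, 6.94 and 6.92 in G-MDSC and 8.35, 8.35, 7.83 and 8.16 in TAN. It rose by 1.43 (SE 0.13, adjusted p = 9.95e-08) in TAN and differed by 0.33 (adjusted p = 0.0598) in G-MDSC. Hsp90aa1 gained a call as risen in G-MDSC without NN 7 or without TAN 3 (adjusted p = 0.0398 and 0.0268). A replicate block gave it that call too (adjusted p = 0.0331).

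Hsph1, an HSP110 that recharges HSP70, had 7.15 to 7.75 (median 7.43) in NN, 10.32, 6.72, 6.71 and 7.23 in G-MDSC and 9.71, 9.54, 8.43 and 9.51 in TAN. G-MDSC 1 was above every TAN while the other G-MDSC lay within or under the NN range. Hsph1 rose by 1.83 (SE 0.51, adjusted p = 0.00579) in TAN, and its difference in G-MDSC was 0.27 (adjusted p = 0.715), or -0.59 without G-MDSC 1 (adjusted p = 0.0558). Hspa4, another member of that family, had 7.43 to 7.95 (median 7.69) in NN, 7.84, 7.64, 7.88 and 7.70 in G-MDSC and 9.11, 9.05, 7.80 and 8.88 in TAN. All TAN but TAN 3 lay above the rest, with a rise of 1.02 (SE 0.20, adjusted p = 0.000306).

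Hspa8 encodes the constitutive HSC70. By its brightest probe it had 14.78 to 15.30 (median 14.89) in NN, 15.84, 15.04, 14.92 and 15.22 in G-MDSC and 15.82, 15.63, 15.37 and 15.82 in TAN. It rose by 0.68 (SE 0.16, adjusted p = 0.00166) in TAN, where all arrays lay above NN, and its other probe did not follow. In G-MDSC the brightest probe differed by 0.28 (adjusted p = 0.201), and it rose by 0.63 with arrays scaled to their median (adjusted p = 0.00771). Of the HSP40 co-chaperones, Dnaja1 rose by 0.26 (adjusted p = 0.0242) in TAN, with signals of 6.44 to 6.99 over all arrays, near the background limit, and lost the call without TAN 2 (adjusted p = 0.0802). Dnajb1 and Dnajb4 differed by 0.09 and -0.01 in TAN and by 0.01 and -0.09 in G-MDSC, and passed the test in neither.

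The 3 mitochondrial chaperone genes rose in TAN and none passed the test in G-MDSC. Hspa9, the mitochondrial HSP70 known as mortalin, had 10.14 to 10.73 (median 10.35) in NN, 12.07, 10.50, 10.51 and 10.52 in G-MDSC and 12.98, 12.94, 12.43 and 13.31 in TAN. Hspe1, which encodes HSP10, had 7.81 to 8.57 (median 8.19) in NN, 9.33, 8.05, 7.83 and 8.27 in G-MDSC and 11.10, 11.14, 10.17 and 10.88 in TAN. Hspd1, its HSP60 partner, had 10.00 to 10.62 (median 10.45) in NN, 10.91, 9.65, 9.44 and 9.54 in G-MDSC and 11.73, 11.58, 11.37 and 12.06 in TAN. For each gene TAN lay above all other arrays and G-MDSC 1 above NN and the other G-MDSC. In TAN, Hspa9 rose by 2.54 (SE 0.26, adjusted p = 3.85e-07), Hspe1 by 2.60 (SE 0.25, adjusted p = 2.27e-07) and Hspd1 by 1.34 (SE 0.23, adjusted p = 0.000111). Without G-MDSC 1, Hspd1 fell by 0.81 in G-MDSC (adjusted p = 0.000641).

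To set the ER branch against the cytosolic one within each array, the deviation of every gene from its NN mean was averaged over the branch, as a description with no test. The ER branch deviated by 0.74, 0.57, 0.68 and 0.51 in G-MDSC 1 to 4 and by 0.53, 0.61, 0.78 and 0.76 in TAN 1 to 4, so that the ranges of the groups overlapped, and by -0.09 to 0.10 in NN. The cytosolic branch deviated by 1.2, 0.20, 0.20 and 0.33 in G-MDSC and by 1.61, 1.54, 1.18 and 1.67 in TAN. G-MDSC 1 thus lay among the TAN on this measure, while the other G-MDSC lay much nearer to NN, which ran from -0.11 to 0.15. Cytosolic minus ER was 0.47 in G-MDSC 1, -0.37, -0.48 and -0.18 in the other G-MDSC, 1.09, 0.93 and 0.90 in TAN 1, TAN 2 and TAN 4, and 0.41 in TAN 3. Much of this came from Hspa1a, whose NN mean lay below background. Leaving it out, the cytosolic branch deviated by 0.79, -0.09, -0.10 and -0.01 in G-MDSC and by 1.09, 1.02, 0.54 and 1.01 in TAN. Cytosolic minus ER was then 0.05, -0.66, -0.78 and -0.53 in G-MDSC and 0.56, 0.42, -0.23 and 0.25 in TAN, so that its sign turned in TAN 3. The 3 mitochondrial genes deviated by 1.12, -0.25, -0.39 and -0.20 in G-MDSC and by 2.29, 2.24, 1.68 and 2.44 in TAN. G-MDSC 1 was the array with high B, T and NK cell markers.

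**Figure D3:**
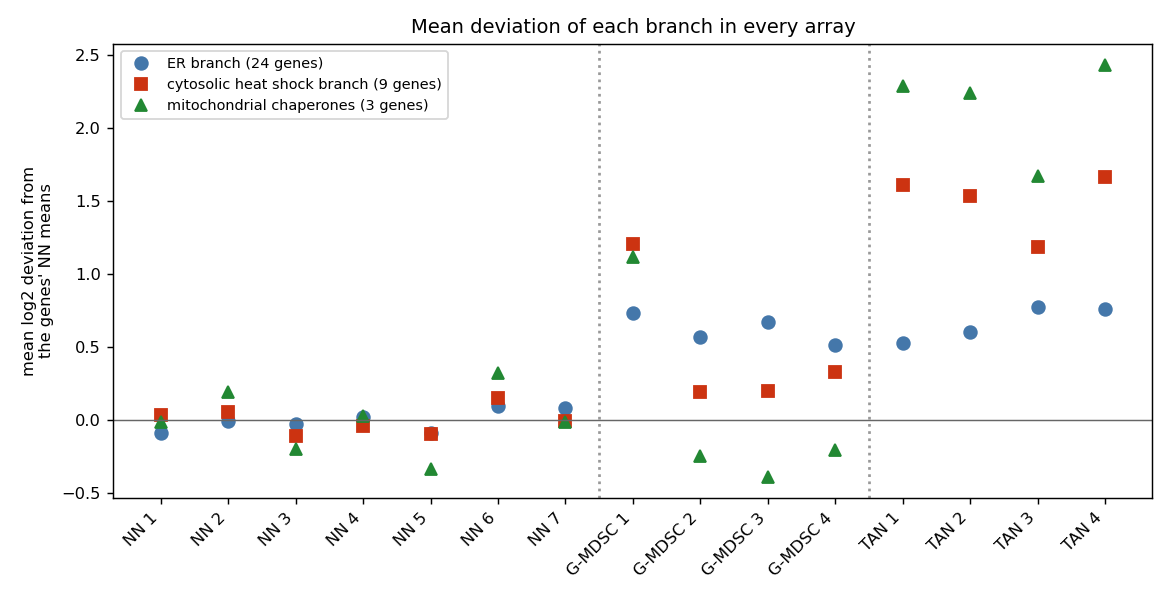
Mean log2 deviation from the genes' NN means (y axis) in each of the 15 arrays (x axis) for the 24 ER genes (circles), 9 cytosolic heat shock genes (squares) and 3 mitochondrial chaperone genes (triangles). In G-MDSC 2 to 4 the circles (0.51 to 0.68) lie above the squares and triangles, in TAN the triangles (1.68 to 2.44) lie above the squares and the squares above the circles, and in G-MDSC 1 the squares (1.2) are highest.

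Within the ER branch, the deviation of chaperones was 0.55 to 0.92 in G-MDSC, against 0.39 to 0.68 in TAN. That of sensors and transcription factors was 0.61 to 1.03 in G-MDSC, against 0.24 to 0.54 in TAN. For the genes grouped as integrated stress response targets, the constitutive Ppp1r15b included, it was 0.68 to 0.86 in G-MDSC, against 1.14 to 1.22 in TAN. Disulfide isomerases overlapped, at 0.06 to 0.58 in G-MDSC against 0.02 to 1.59 in TAN (highest in TAN 3), as did degradation genes, at 0.29 to 0.59 and -0.34 to 0.32 (lowest in TAN 3). In the direct comparison of TAN with G-MDSC, 15 of the 36 genes rose, against 36.4% of all genes, and 7 fell, against 22.6%. The 15 were 5 of 9 cytosolic genes, all 3 mitochondrial genes and 7 of 24 ER genes, namely Hsp90b1, P4hb, Pdia6, Xbp1, Ppp1r15a, Chac1 and Asns. The 7 that fell were ER genes: Hspa5, Calr, Dnajb9, Herpud1, Atf4, Eif2ak3 and Sesn2. P4hb rose by 2.49 (SE 0.21, adjusted p = 1.55e-07), Chac1 by 2.33 (SE 0.19, adjusted p = 1.26e-07) and Xbp1 by 1.67 (SE 0.10, adjusted p = 4.82e-09), while Sesn2 fell by 1.99 (SE 0.27, adjusted p = 1.45e-05), Atf4 by 1.60 (SE 0.25, adjusted p = 5.95e-05) and Eif2ak3 by 1.53 (SE 0.19, adjusted p = 5.89e-06). No background level holds both of these groups. With a block for the level, 4 genes fell (against 13.6% of all genes), namely Dnajb9, Atf4, Eif2ak3 and Sesn2, and the risen Ppp1r15a and Hsph1 also lost their calls (adjusted p = 0.214 and 0.195). Hsph1 lost this call as well when any of G-MDSC 2, G-MDSC 3, G-MDSC 4, TAN 1, TAN 2 or TAN 4 was left out (adjusted p of 0.0661 to 0.104).

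Probes of one gene did not always move alike, above all in TAN. Of 2957 genes with several probes, the share with probes over 4-fold apart, relative to NN, was 1.32 to 2.47% in G-MDSC, and 22.6, 22.0, 5.48 and 17.5% in TAN 1 to 4. There were none in NN, but each probe was set against its own NN mean, so that NN arrays lie near it by construction. Among the genes described here 10 had several probes. Of the genes that fell in TAN, Calr, Pdia3, Atf4 and Eif2ak3 had no other kept probe to set beside the one given. The other Hspa8 probe had 8.81 to 11.40 in NN, where NN 6 and NN 7 were highest at 11.40 and 11.19, and 8.85, 8.64, 7.61 and 8.62 in TAN, with a difference of -1.42 (adjusted p = 0.0575) where the brightest probe rose. The other Hspd1 probe was below background in all TAN and in 3 of 7 NN, and gives no value to set beside the rise of the brightest (adjusted p = 0.0658). The dimmest Sel1l probe, also below background in all TAN, was at least 1.22-fold lower than in NN (adjusted p = 0.00112), while the brightest rose. The dimmer Dnajb4 probe, below background in all NN and in TAN 3, was at least 1.2-fold higher in TAN (adjusted p = 0.0109), where the brighter did not pass the test. Both probes agreed in their calls in TAN for Ddit3 (2.10 and 3.22), Hspa9 (2.54 and 1.18) and Sesn2 (-1.22 and -0.51). In G-MDSC both probes of Herpud1, Ddit3 and Sesn2 rose, and of the Asns probes 2 fell (-1.12 and -0.89) and the dimmest had a difference of -0.39 (adjusted p = 0.0593). The dimmer Sel1l probes (0.27 and -0.04, adjusted p = 0.405 and 0.833) and the other Creld2 probe (0.53, adjusted p = 0.158) did not pass the test in G-MDSC. With the mean of a gene's probes, Sel1l and Creld2 lost their calls there (adjusted p = 0.141 and 0.069). In TAN both dimmer Asns probes fell, where the brightest did not pass the test: one had a difference of -0.33, and the dimmest, below background in all TAN, was at least 1.30-fold lower than in NN (adjusted p = 9.92e-05). From G-MDSC to TAN the other Ddit3 probe rose by 1.90 (adjusted p = 5.22e-06), and the other Hspa8 probe fell by 2.13 (adjusted p = 0.0161). Neither brightest probe passed the test there. The other Hspd1 and dimmest Asns probes fell (adjusted p = 0.0217 and 0.02), where the brightest rose, but were below background in all TAN. So was the dimmest Sel1l probe, which fell too (adjusted p = 0.00544). Both probes of Herpud1 and Sesn2 fell, and both of Hspa9 rose.

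**Figure D4:**
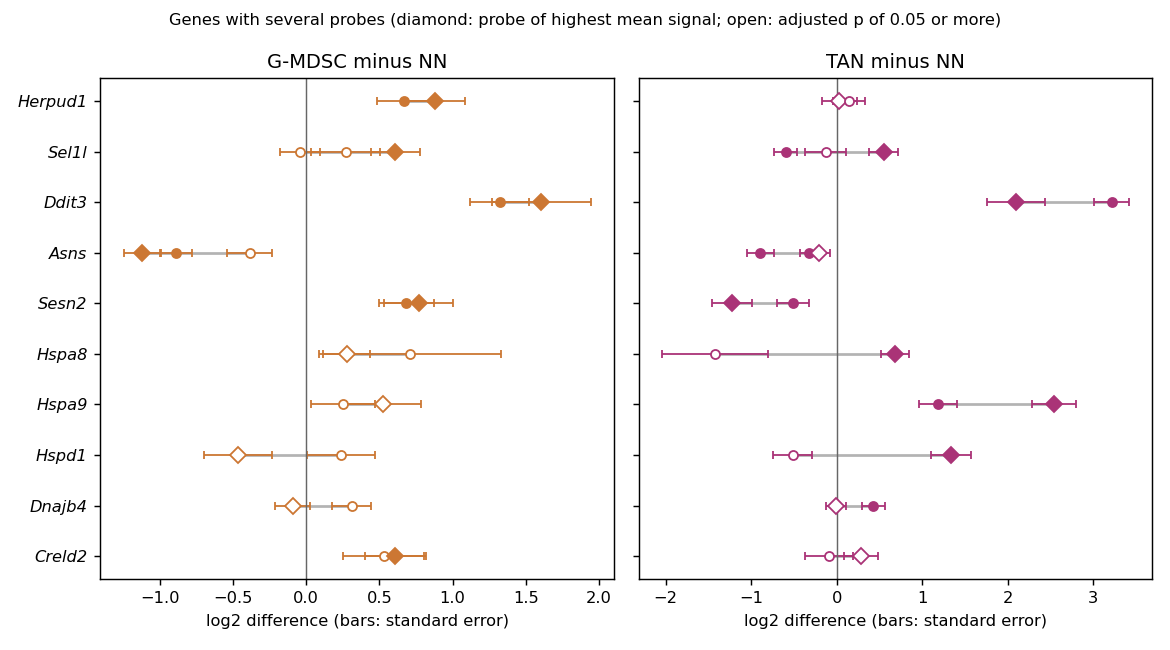
Log2 difference from NN (x axis, bars are standard errors) of every kept probe of the 10 genes with several probes (y axis), in G-MDSC (left, orange) and TAN (right, purple), 4 arrays each against 7 NN. Diamonds are the brightest probe of a gene and open marks have an adjusted p of 0.05 or more. In TAN the probes of Hspa8, Hspd1, Sel1l, Creld2 and Dnajb4 lie on both sides of 0. The lowest points of Hspd1, Sel1l and Asns are fitted values of probes below background in all TAN, as the higher Dnajb4 point is of one below background in all NN.

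The rest of these pathways was looked at through lists of further genes. Of 21 other integrated stress response genes 16 rose in TAN and 2 fell, with a median of 1.48, while in G-MDSC 6 rose and 5 fell, with a median of -0.06. Atf3, a stress factor downstream of ATF4, rose by 6.30 (SE 0.46, adjusted p = 8.91e-09) in TAN and by 4.48 (SE 0.46, adjusted p = 1.16e-06) in G-MDSC. Nupr1, a stress-induced chromatin protein, rose by 4.70 and 2.70. In TAN the genes that fell were Eif2ak1, the heme-regulated kinase of eIF2α (-0.99), and Phgdh, of serine synthesis, which was below background in all TAN. In G-MDSC Mthfd2 (-0.77) and Psat1 (-0.76) were lowest. Of 31 other cytosolic chaperone genes 20 rose and 6 fell in TAN (median 0.53), led by St13 (1.89) and the chaperonin subunit Cct3 (1.36), with Stip1 (-2.37) and Ahsa1 (-1.99), both HSP90 co-chaperones, lowest. In G-MDSC 4 rose and 3 fell (median -0.13), with Hspa2 (1.26) and Fkbp5 (1.13) highest and Dnajb2 and Dnaja4 (both -1.38) lowest. Of 7 other mitochondrial chaperone and protease genes 5 rose in TAN and none fell (median 0.72), with Clpp (1.67) and Trap1 (1.48) highest, and in G-MDSC 2 fell, Dnaja3 (-0.59) and Grpel1 (-0.26).

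Genes of ER entry, folding and degradation beyond the named ones moved in both directions. Of 24 genes of ER folding and translocation 9 rose and 7 fell in TAN (median 0.12), and 6 rose and 3 fell in G-MDSC (median 0.12). Txndc5, a disulfide isomerase (1.83), and Ssr4, of the translocon (1.77), were highest in TAN, and Serp1 (-3.48), which stabilizes new membrane proteins, and Sec61b (-3.45), a subunit of the translocation channel, lowest. In G-MDSC Erp29 (0.94) and Txndc5 (0.85) were highest, and Mlec (-1.52) and Spcs3 (-0.86) lowest. Of 14 further degradation genes 5 rose and 4 fell in TAN (median 0.03), from Edem2 (1.21) and Selenos (0.76) to Rnf5 (-1.38) and Nploc4 (-2.01), and 6 rose and 3 fell in G-MDSC (median 0.21), from Edem2 (1.55) and Selenok (1.09) to Vcp (-0.73) and Rnf5 (-0.88). These counts stand beside 36.9% of all genes that rose and 26.2% that fell in TAN, and 18.3% and 19.7% in G-MDSC.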

How the data were processed

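The deposited array files hold 1 intensity for each of 25697 probes on each of 15 arrays, summarized by the authors with BeadStudio and, judged by the values, neither background subtracted nor normalized between arrays. A table of normalized intensities that the authors deposited holds 16322 of these probes, left by their filter on detection and on the ratio between arrays, and it served as an alternative and to choose the probes. Here signals were background corrected with limma 3.58.1 (normexp, offset 50; R 4.3.3), quantile normalized and taken to log2. Probes of the authors' table were kept unless no pair of arrays differed by 1.2-fold, which left out 5. The background limit of an array was the 95th percentile of the 9375 probes outside that table. Symbols came from GEO's platform annotation, which gave none for 996 kept probes. For a gene with several probes, the one brightest on average over all arrays stands for it.

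All 15 arrays entered one limma model with 3 group means, and p-values were adjusted over the 16317 kept probes. Replicates were independent pooled samples, by the methods, and no pair of arrays was counted as one. The number of arrays limits the precision. The script was tested on simulated data with known changes. The members and lists were chosen with earlier results of these data known. Genes of the list that were called in at least 1 comparison with a log2 difference over 1 are given with the value of every array, the others by ranges and counts, and from each further list the 2 highest and 2 lowest called differences from NN are named. Alternatives were no background correction, scaling to the array median, all probes, the authors' table, background level or replicate number as a block, arrays of one background level, the mean of a gene's probes, and arrays left out. Promoters and their coordinates are RefSeq's (GRCm38.p6).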

Additional observations from a re-analysis of the deposited data

Results flagged for a closer look

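Of 108 groups of values, the 36 genes in each population, 12 held 1 array far from the rest of its group, where chance flags about 1 in 20. In 8 of the 12 that array was G-MDSC 1, the one with high B, T and NK cell markers, and their part was not tested. G-MDSC 1 was high for Pdia4 (9.18, the others 7.80 to 8.0), P4hb (12.58, the others 11.41 to 11.54), Syvn1 (12.16, the others 11.51 to 11.60), Hspa9 (12.07, the others 10.50 to 10.52), Hsph1 (10.32, the others 6.71 to 7.23), Hsp90aa1 (7.45, the others 6.92 to 6.95) and Hspd1 (10.91, the others 9.44 to 9.65). It was low for Sesn2 (8.92, the others 10.17 to 10.42).

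The other 4 were Hsph1 low in TAN 3 (8.43, the others 9.51 to 9.71), Ppp1r15a high in TAN 4 (14.50, the others 14.11 to 14.17), Ppp1r15b high in G-MDSC 2 (10.35, the others 10.19 to 10.21) and Asns low in NN 4 (11.31, the others 11.50 to 11.60).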

How the results depend on the processing

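Of 65 calls of single genes, 65 were kept without background correction, with all probes, in the authors' table and without TAN 3 and G-MDSC 1 (which added 14), 62 with arrays scaled to their median, 61 with the mean of a gene's probes and 52 with a block for background level. In the arrays of 1 level alone, 10 of 16 calls in G-MDSC and 26 of 27 in TAN were kept. The cause was not tested where a value below moved.

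The count of genes risen in G-MDSC went from 15 to 8 with a block for background level, and the count fallen there went from 1 to 4 without TAN 3 and G-MDSC 1 (1 to 3 with 1 array left out). From G-MDSC to TAN the count fallen went from 7 to 4 with the block and to 11 without TAN 3 and G-MDSC 1. The ER median became 0.81 in G-MDSC with median scaling, and in TAN 0.21 with the mean of probes and 0.61 without TAN 3 and G-MDSC 1 (0.36 to 0.61 with 1 array left out). The cytosolic median in G-MDSC became 0.03 with the block (0.05 to 0.35 with 1 array left out). The cytosolic median in TAN became 1.33 without TAN 3 and G-MDSC 1 (0.89 to 1.33 with 1 array left out). From G-MDSC to TAN the ER median of -0.10 became -0.33 with median scaling, -0.24 with the mean of probes and 0.15 with the block (-0.17 to 0.038 with 1 array left out, the last without TAN 3), so its sign is not settled. The cytosolic median of 0.95 there became 0.69 with median scaling, 1.26 with the block and 1.28 without TAN 3 and G-MDSC 1 (0.82 to 1.22 with 1 array left out). With the mean of a gene's probes, Sel1l and Hspa8 in TAN against NN turned to -0.058 and -0.37 and Hspa8 in TAN against G-MDSC to -0.86. Hsph1 in G-MDSC against NN turned to -0.59 without TAN 3 and G-MDSC 1.

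Median scaling moved the median of all genes from G-MDSC to TAN by -0.11, and the share of risen among all called genes from 61.7 to 50.8% there and from 48.2 to 61.4% in G-MDSC against NN.

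Samples that share a replicate number had correlations of their deviations of -0.31 to 0.27, over 0.1 in 4 of 12 pairs. Samples of different numbers were not compared, so whether the number pairs them is not settled. They were treated as unpaired. With a replicate block 62 of the 65 calls were kept and 3 were gained, P4hb (adjusted p = 0.0611) and Creld2 in G-MDSC and Atf4 in TAN being lost. For dim probes near the background limit, such as those of Hspa5 and Dnaja1, the size of a difference is less sure than its small standard error tells (0.10 and 0.09 in TAN against NN).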
